A study of Triticum turgidum subsp. durum with 4 samples.

Results

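Small RNA profiles of L6 seedlings were compared between the progeny of parents given water-deficit and heat stress (SWH) and the progeny of control parents (SCG). L6 is a durum wheat breeding line that the study treats as stress-sensitive, and its stressed parents had been short of water from booting and exposed to heat after flowering. Members of the comparison were the distinct mature miRNA sequences recorded in SCG or SWH, 1967 of the 2111 in the series, and 1541 of them were recorded in both libraries. Names were taken from the deposited annotation, in which a suffix such as L-2 or R+1 marks bases missing from or added to an end and ss marks a substitution relative to the miRBase entry.

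Each library was made from pooled shoot RNA of 8 seedlings at 12 days, grown without stress in a glasshouse, and there was 1 library per seed group. The same pair of parental treatments was available for DBA Aurora, the genotype treated as stress-tolerant, as TCG (control parents) and TWH (stressed parents), and its values are set beside those of L6. The table recorded 1293324 miRNA reads in SCG and 855716 in SWH over all sequences, or 1266852 and 836116 when numbered copies of 1 name with the same reads are counted once. Nothing in a table of miRNAs marks shoot tissue, so the tissue label could not be checked. No spread between seedlings or pools can be measured, and every p-value compares 2 libraries, not 2 seed groups. Levels are the authors' normalised counts, which equal the raw number times 1 factor per library, 0.833 for SCG and 1.20 for SWH. Fewer than 5 reads were almost never recorded, so where a library is at 0 the fold is given as "at least", taking 5 reads in its place.

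Plant miRNAs are cut from the stem of a hairpin precursor by a Dicer-like enzyme, and the guide strand in an Argonaute protein directs cleavage or translational repression of transcripts that pair with it almost completely. Many conserved families act on transcription factors of development or on enzymes of nutrient and redox balance, and several of them are known to respond to drought or heat in cereals. The opposite strand of the duplex, from the other arm of the hairpin, usually accumulates less.

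The sequences below carried the differences described in the following paragraphs. They are written 5′ to 3′ as DNA letters as in the deposited table, with the seed (bases 2 to 8) in capitals. The first set holds members of miR398, which targets transcripts of copper/zinc superoxide dismutases, and of miR397, which targets laccases.
mtr-miR398a-5p_1ss7AC: gGAGTGCCactgagaacacaag
bdi-miR398b_L-2R+2: gGAGTGTCactgagaacacaag
mtr-miR398a-5p_1ss17CA: gGAGTGACactgagaaaacaag
osa-miR398a: tGTGTTCTcaggtcacccctt
osa-miR398a_L+1R-1: tTGTGTTCtcaggtcacccct
tae-miR397-5p: tCACCGGCgctgcacacaatg
The 5′ arm forms of miR398 differ within the seed. Counted from the 5′ end, bdi-miR398b_L-2R+2 differs from mtr-miR398a-5p_1ss7AC by C7T, and mtr-miR398a-5p_1ss17CA by C7A and C17A. The 2 forms from the 3′ arm are shifted by 1 base against each other.

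The second set holds miR5200, known in Brachypodium for targeting FT-like florigen genes, with the abundant forms of both arms, and miR444, a grass family that targets MADS-box genes.
tae-MIR5200-p5: tAAGCCTTagtgaatatctac
ata-miR5200-5p: aAGCCTTAgtgaatatctaca
bdi-miR5200a-3p: tGTAGATActccctaaggctt
osa-miR444b.1: tGTTGTCTcaagcttgctgcc
osa-miR444b.1_L-2: tTGTCTCAagcttgctgcc
osa-miR444f_1ss12CT: tGCAGTTGttgtctcaagctt
hvu-miR444b: tGCAGTTGctgtctcaagctt
The last of these is shown because its counts were almost equal in SCG and SWH while osa-miR444f_1ss12CT, which has the same seed and differs from hvu-miR444b by C9T, rose.

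The third set holds sequences of miR160, which targets auxin response factor genes, of miR169, which targets NF-YA subunits of a CCAAT-binding factor, and the abundant wheat sequences past the fold criterion.
osa-miR160f-5p_L-2R+2: cCTGGCTCcctgaatgccatc
osa-MIR160f-p3_1ss19TA: tTGGCATTgagggagtcaagc
osa-MIR160f-p5_2ss9GT19TA: tTGGCATTtagggagtcaagc
ata-miR169e-5p: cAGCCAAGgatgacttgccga
ata-MIR169d-p3: tTGTCCTTggctacacctagt
tae-miR9774_L+2: aACAAGATattgggtatttctgtc
tae-miR9661-5p_1ss14GA: tGAAGTAGagcagagacctca
The miR160 pair osa-MIR160f-p3_1ss19TA and osa-MIR160f-p5_2ss9GT19TA share a seed and differ by G9T. The read tae-miR9661-5p_1ss14GA differs from the hairpin of the durum genome Svevo.v1 at 1 base, G14A.

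Of the 1967 sequences, 1254 averaged at least 10 normalised counts over SCG and SWH and were tested, and the other 713 were not. A sequence was called when a chi-squared test and Fisher's exact test against the sum of all other sequences both had a Benjamini-Hochberg adjusted p under 0.05 and the log2 fold change of SWH over SCG exceeded 1 in size. In SWH, 20 sequences were higher (1.59% of those tested) and 18 were lower (1.44%). Under a wider rule with a log2 fold beyond 0.5, 36 were higher (2.87%) and 32 were lower (2.55%), and "rose" and "fell" are used below only for sequences past one of these rules. In DBA Aurora, among 1261 sequences tested between TWH and TCG, 31 (2.46%) were higher and 48 (3.81%) lower past a log2 of 1, and 59 (4.68%) and 84 (6.66%) past 0.5. The tests weigh counting error alone. As an alternative, a common dispersion was estimated over the 4 libraries with an additive model of genotype and parental treatment. Differences in response between the genotypes therefore count as spread in it. When the spread was set by a negative binomial exact test in edgeR with the common dispersion of the 4 libraries (0.0454), 1 sequence was higher and 4 were lower at an adjusted p under 0.05, and 49 had an unadjusted p under 0.05. The 5 that kept their call were osa-miR398a and the 4 called sequences that were at 0 in 1 library.

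The median log2 ratio of all tested sequences was -0.03. The differences were mostly small and widened as counts fell. Among the 104 sequences recorded in both libraries at a mean of at least 1000, the SD of the log2 ratio was 0.29, against 0.039 from counting error. Among the 612 at 10 to 30 the SD was 0.67, against 0.52 from counting error. The spread exceeded counting error at every abundance, and between TCG and TWH it was 0.35 in the first of these classes and 0.74 in the second. Most calls came from sequences of low or middle abundance, and 4 of the higher and 4 of the lower ones reached a normalised count of 100 in SCG or SWH. The sequences nearest the fold criterion were PC-5p-3888_369 and PC-5p-10117_164 (log2 1.0 and 1.01) just inside, and tae-MIR5200-p5 and ata-miR5200-5p (both 0.98) just outside. On the lower side, PC-3p-12791_136 (-1.04) and tae-miR9661-5p_1ss14GA (-1.06) lay just inside, and bdi-MIR169d-p3 and mtr-miR398a-5p_1ss7AC (both -0.96) just outside.

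**Figure D1:**
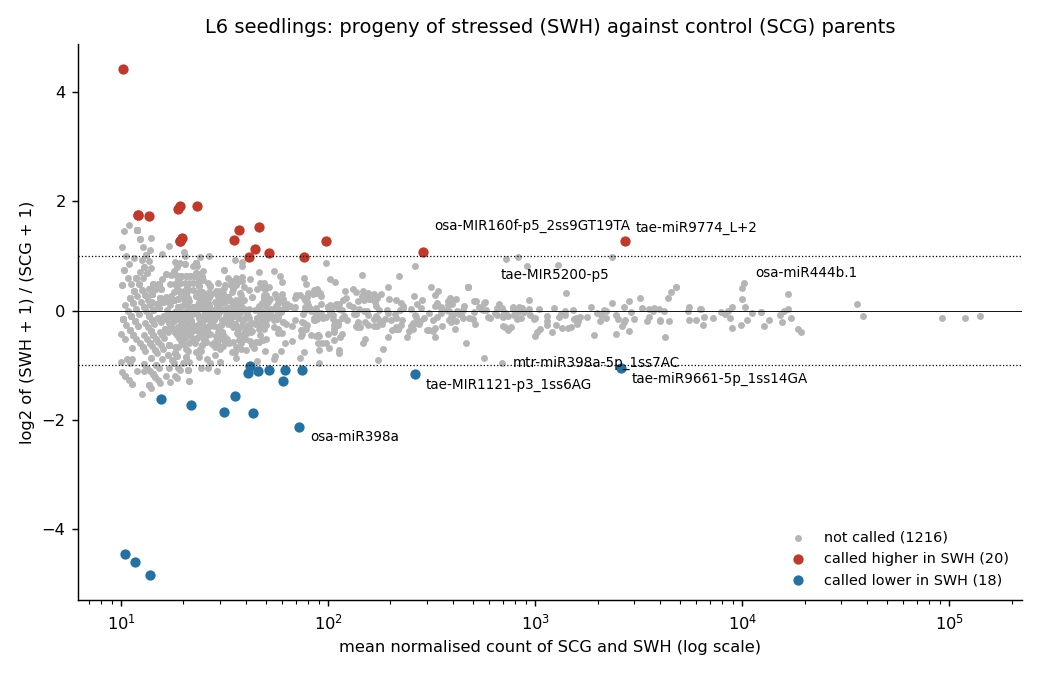
Each point is 1 of the 1254 tested sequences, with the mean normalised count of SCG and SWH on a logarithmic horizontal axis and log2 of (SWH + 1)/(SCG + 1) on the vertical axis. Dotted lines mark a log2 of 1 and -1, and the 20 sequences called higher and 18 called lower lie mostly at low counts.

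The clearest shared decrease was in the copper-linked families, which are known to accumulate when copper is scarce and to spare copper by lowering copper proteins. Of 16 such sequences 13 were tested, 5 were called lower, none was called higher, and 12 had a log2 below 0. Among all 1254 tested sequences, 1.44% were called lower, 1.59% were called higher, and 677 had a log2 below 0. Their median log2 was -0.49 (quartiles -1.14 and -0.17), and their summed normalised count was 2211 in SCG and 1363 in SWH. The most abundant member, mtr-miR398a-5p_1ss7AC, had normalised counts of 917 in SCG and 471 in SWH, a log2 change of -0.96 (95% counting interval -1.13 to -0.79; Fisher's exact test, adjusted p = 3.10e-27), so it fell under the wider rule only. osa-miR398a, the 3′ arm guide sequence, went from 118 to 26.4 and fell by 2.16 on the log2 scale (interval -2.88 to -1.51; Fisher's exact test, adjusted p = 1.11e-12). This was the largest decrease among called sequences recorded in both libraries.

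Of the other 5 miR398 forms, 3 were called lower. osa-miR398a_L+1R-1 went from 102 to 47.9 normalised counts (log2 -1.09), bdi-miR398b_L-2R+2 from 86.6 to 34.8 (-1.32) and mtr-miR398a-5p_1ss17CA from 68.3 to 18.0 (-1.92). All 3 had lower log2 values than the most abundant form, with wider intervals. tae-miR398_L-1R+1 had 85.8 in SCG and 62.3 in SWH and ata-miR398g-5p_L+1R-1_1ss9GA had 108 and 119, and neither passed the tests. Summed over the family, miR398 had 1486 normalised counts in SCG and 779 in SWH, a log2 ratio of -0.93 (interval -1.06 to -0.80). In DBA Aurora the family stood higher in both libraries, with 3692 in TCG and 2357 in TWH, and its ratio of -0.65 had the same sign.

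Among the partners of miR398 the decrease was limited to 1 sequence past the tests. tae-miR397-5p fell from 56.6 to 25.2 normalised counts (log2 -1.17, interval -1.95 to -0.45; Fisher's exact test, adjusted p = 0.00995). tae-MIR397-p5, the other arm form, had 341 and 302, and hvu-MIR397b-p5 had 16.7 and 15.6. tae-miR408_L-1, of the family that targets plantacyanin genes, had 41.6 and 37.2. The 2 arms of miR528 had 133 and 94.7 (ata-miR528-3p_1ss4GC) and 119 and 103 (ata-miR528-5p) in SCG and SWH, without passing the tests, while in TCG and TWH they had 42.4 and 79.5, and 101 and 153, both higher in TWH under the wider rule.

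The precursor that carries mtr-miR398a-5p_1ss7AC and osa-miR398a_L+1R-1 lies at chr5A:468826184-468826360 on the minus strand of Svevo.v1, 980 bp from the nearest annotated protein-coding gene. Its hairpin is shown with the arm sequences in capitals to place the forms that fell.
MIR398 hairpin on 5A: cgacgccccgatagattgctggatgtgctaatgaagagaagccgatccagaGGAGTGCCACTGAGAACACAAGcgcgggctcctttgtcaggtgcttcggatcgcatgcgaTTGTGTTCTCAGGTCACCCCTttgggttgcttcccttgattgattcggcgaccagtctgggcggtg
The table assigned osa-miR398a to a precursor at chr5B:482030514-482030690 and mtr-miR398a-5p_1ss17CA to another at chr5B:482071944-482072128, both on the minus strand. Since the forms overlap almost completely, reads of these near-identical loci cannot be told apart beyond the substitutions shown.

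**Figure D2:**
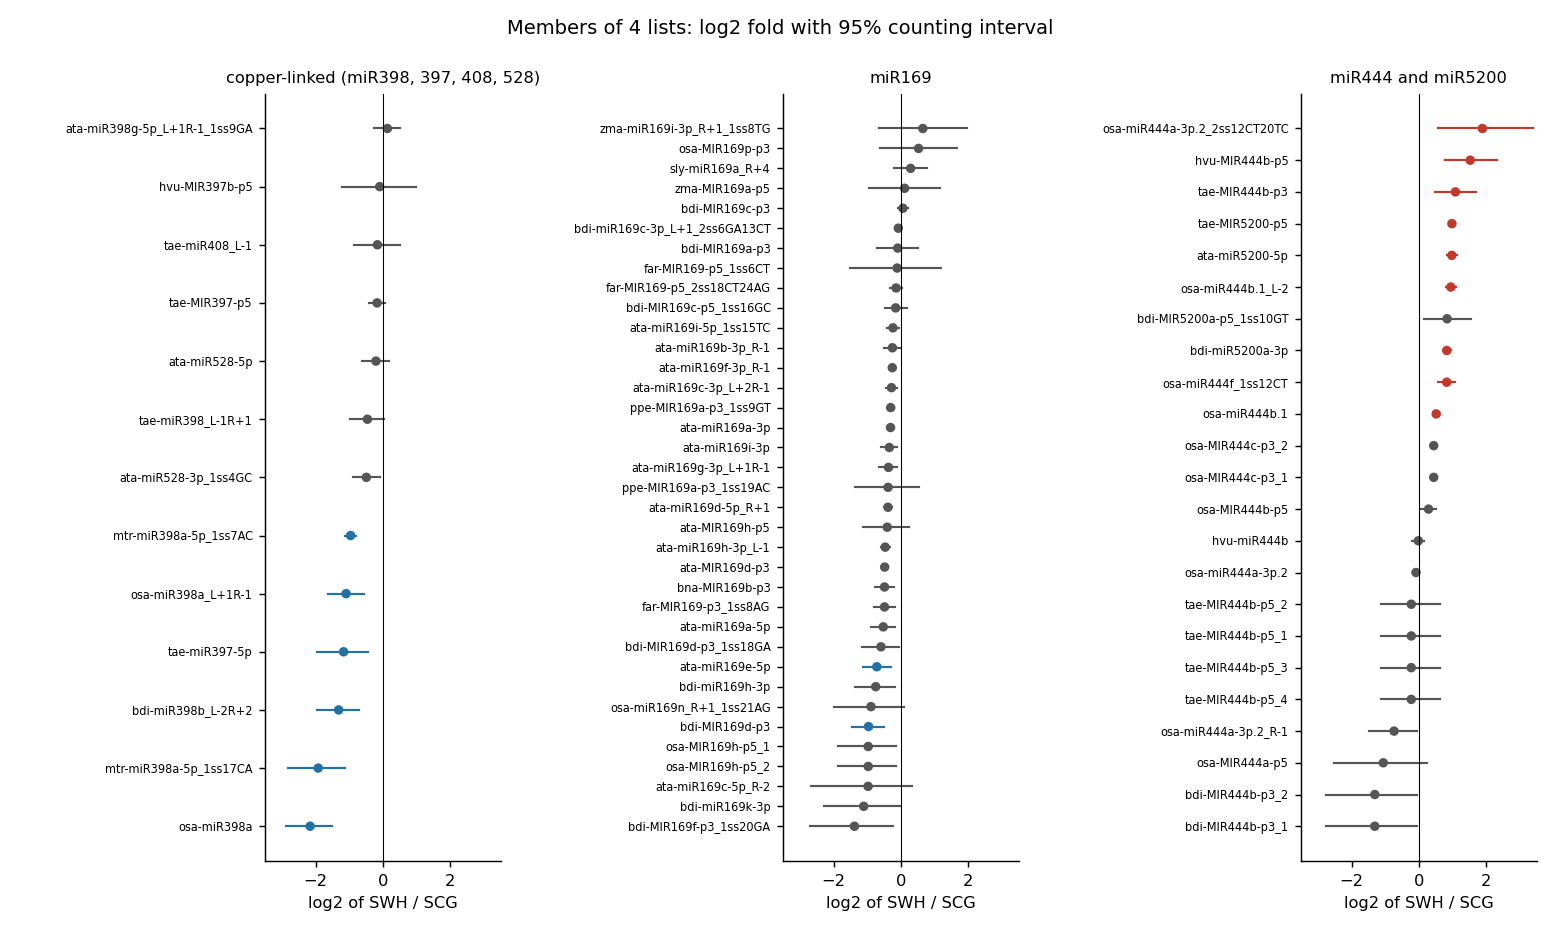
Log2 of SWH over SCG (horizontal axis) with its 95% counting interval for the tested members of the copper-linked, miR169, and miR444 and miR5200 lists. Blue and red mark sequences that fell or rose by at least the wider rule, grey the others; 12 of 13 copper-linked and 31 of 36 miR169 points lie below 0, and all 4 miR5200 points lie above it.

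miR5200 moved the other way and did so on both arms. All 4 tested sequences of that name had a log2 above 0, with a median of 0.90, and 3 rose under the wider rule. Among all 1254 tested sequences, 577 had a log2 above 0 and 2.87% rose under that rule. tae-MIR5200-p5 had 1586 normalised counts in SCG and 3132 in SWH (log2 0.98, interval 0.90 to 1.07; Fisher's exact test, adjusted p = 9.87e-129). ata-miR5200-5p had 557 and 1097 (0.98, interval 0.83 to 1.13), and bdi-miR5200a-3p, the 3′ arm sequence, had 927 and 1648 (0.83, interval 0.71 to 0.94). The rare variant bdi-MIR5200a-p5_1ss10GT had 27.5 and 49.1, with an interval of 0.14 to 1.55 and an adjusted p of 0.0627 in Fisher's exact test. With TMM or median-of-ratios factors tae-MIR5200-p5 reached 1.03 and 1.01 and ata-miR5200-5p 1.03 and 1.01, which passed the fold of 1.

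The family was almost level in DBA Aurora. tae-MIR5200-p5 had 2910 normalised counts in TCG and 2941 in TWH, bdi-miR5200a-3p had 1600 and 1487, and ata-miR5200-5p had 712 and 673. SCG therefore held the lowest value of all 4 libraries for each of these sequences, and SWH the highest. The deposited annotation assigned tae-MIR5200-p5 to a precursor at chr7B:8934124-8934216 (plus strand). It assigned ata-miR5200-5p to a precursor at chr7A:70159978-70160076 (minus strand). Both hairpins contain the same 3′ arm sequence, and the 7B hairpin also contains the sequence of ata-miR5200-5p. Reads of these 2 sequences therefore cannot be told apart by precursor, and a rise of the 7A precursor itself is not shown. The hairpin on 7A is printed with the arm sequences in capitals to place the forms that rose.
MIR5200 hairpin on 7A: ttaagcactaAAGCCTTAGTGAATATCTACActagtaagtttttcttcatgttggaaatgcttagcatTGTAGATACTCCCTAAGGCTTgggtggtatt

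In miR444, some forms rose while others with the same seed stayed level. Of 19 tested sequences 3 were called higher, 6 rose under the wider rule and none fell, and the median log2 was -0.01. Set beside this, 1.59% of all tested sequences were called higher, and 2.87% rose and 2.55% fell under the wider rule. The most abundant member, osa-miR444b.1, rose from 8412 to 12021 normalised counts (log2 0.51, interval 0.47 to 0.55), which lies just past the wider rule. Its shorter form osa-miR444b.1_L-2 rose from 490 to 947 (0.95) and osa-miR444f_1ss12CT from 190 to 337 (0.83). hvu-miR444b had 509 in SCG and 503 in SWH, and osa-miR444a-3p.2 had 2131 and 2008. osa-MIR444b-p5, the 5′ arm form of the osa-miR444b.1 precursor, had 295 and 360 (0.29). osa-MIR444c-p3_1, assigned to a separate precursor on 2A, had 4074 and 5533 (0.44), and both were short of the wider rule.

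The 3 called members of miR444 were rare. tae-MIR444b-p3 rose from 33.3 to 70.7 normalised counts, hvu-MIR444b-p5 from 19.1 to 55.1 and osa-miR444a-3p.2_2ss12CT20TC from 5.83 to 21.6. Several numbered copies in the family carry the same reads. With such copies counted once, the summed counts were 16279 in SCG and 21925 in SWH, a log2 ratio of 0.43 (interval 0.40 to 0.46), and the median of the 14 tested sequences left was 0.36. In DBA Aurora osa-miR444b.1 had 7045 in TCG and 9595 in TWH (log2 0.45, interval 0.40 to 0.49), the same direction as in L6 and just short of the wider rule. No miR444 sequence passed either rule there.

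miR169 members were mostly a little lower in SWH, with few past the tests' fold. Of 36 tested sequences 31 had a log2 below 0, against 677 of all 1254, and the median was -0.37 (quartiles -0.61 and -0.15). None was called, and 2 fell under the wider rule, as did 2.55% of all tested sequences. bdi-MIR169d-p3 fell from 119 to 61.1 normalised counts (log2 -0.96) and ata-miR169e-5p from 141 to 85.7 (-0.72). The abundant forms shifted less. bdi-miR169c-3p_L+1_2ss6GA13CT had 15551 in SCG and 14739 in SWH (-0.08), ata-miR169f-3p_R-1 had 10772 and 9018 (-0.26), and ata-MIR169d-p3 had 4936 and 3533 (-0.48, interval -0.55 to -0.42). The last value lies outside the quartiles of all tested sequences but short of the wider rule.

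Lower values in miR169 were not limited to 1 seed. The 7 tested sequences that share the seed of ata-miR169e-5p, which is that of the guide strand known to pair with NF-YA transcripts, had a median log2 of -0.52 with 6 below 0, and the other 29 had -0.34 with 25 below 0. osa-miR169n, with 18.3 normalised counts in SCG, was at 0 in SWH, which makes it at least 3.06-fold lower, although it was too rare to be tested. In DBA Aurora the family had a median of 0.25, and 4 of its sequences rose in TWH under the wider rule, among them ata-MIR169d-p3 from 1742 to 2888. Its summed count there was nevertheless lower in TWH, with 35443 in TCG and 33093 in TWH (log2 -0.10). The most abundant form, bdi-miR169c-3p_L+1_2ss6GA13CT, had 22600 and 18713.

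**Figure D3:**
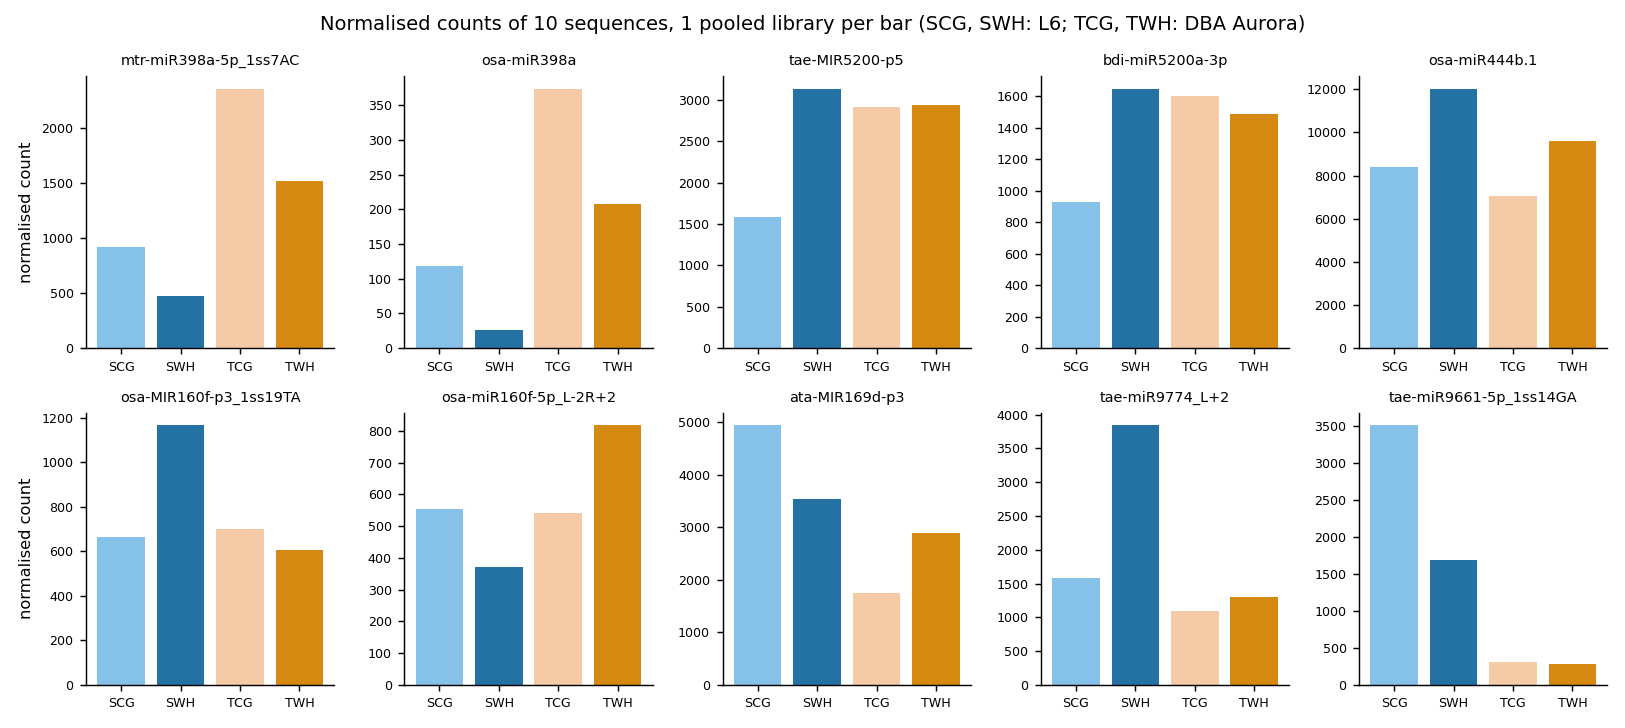
Normalised counts (vertical axis, from 0) of 10 sequences in the 4 pooled libraries, SCG and SWH of L6 and TCG and TWH of DBA Aurora. tae-MIR5200-p5 is lowest in SCG at 1586, mtr-miR398a-5p_1ss7AC is lowest in SWH at 471, and tae-miR9661-5p_1ss14GA reaches 3513 in SCG against 312 in TCG; the bars have no error since each is 1 library.

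In the auxin families, the guide sequences of miR160, miR167 and miR393 were close to level and the differences lay in less abundant forms of miR160. ttu-miR160 had 2304 normalised counts in SCG and 2089 in SWH, tae-miR167c-5p had 16027 and 15887, ata-miR167b-5p 8687 and 9081, and ata-miR393-5p, which targets TIR1/AFB auxin receptors, 8398 and 8091. None of these passed either rule. Of 32 tested sequences of these families, 1 was called higher, 2 rose and 1 fell under the wider rule, and the median was -0.04. The shares over all tested sequences were 1.59% called higher, and 2.87% risen and 2.55% fallen under the wider rule.

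The 3 sequences concerned belong to 2 precursors. osa-MIR160f-p5_2ss9GT19TA rose from 184 to 391 normalised counts (log2 1.09, interval 0.84 to 1.34; Fisher's exact test, adjusted p = 7.66e-19), with 235 and 232 in TCG and TWH. osa-MIR160f-p3_1ss19TA rose from 664 to 1166 (0.81, interval 0.68 to 0.95), with 703 and 606 in DBA Aurora. osa-miR160f-5p_L-2R+2, from the 5′ arm of the same hairpin, fell from 555 to 370 (-0.58, interval -0.78 to -0.39), with 540 and 817 in DBA Aurora. The 2 forms assigned to this hairpin thus moved in opposite directions in L6. Its 5′ arm also contains the sequence of osa-miR160f-5p, which the deposited annotation assigned to a precursor on 7A. That more abundant form had 7556 in SCG and 6927 in SWH (-0.13), so a fall of the whole 5′ arm is not shown. The hairpin lies at chr7B:173542729-173542836 on the plus strand, 466 bp from an annotated protein-coding gene, and is shown with both arms in capitals.
MIR160f hairpin on 7B: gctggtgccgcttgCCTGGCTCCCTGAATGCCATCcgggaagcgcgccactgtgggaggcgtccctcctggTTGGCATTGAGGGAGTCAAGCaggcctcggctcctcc

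Across the 80 pairs of arms in which both arms averaged at least 100 normalised counts, 54 had log2 ratios of the same sign on both arms, and the ratios of the arms had a Pearson r of 0.50 across pairs. The median absolute difference between the 5′ and 3′ arm was 0.16, about the size of the ratios themselves, whose median absolute value was 0.18 at means of 100 to 1000. The difference exceeded 0.5 in 6 pairs. That of MIR160f on 7B was the largest in size, with -1.40 for its assigned 5′ form minus the 3′ arm, a pair that leaves out the more abundant osa-miR160f-5p. In the next, PC-5p-1600_842 had 198 in SCG and 228 in SWH while PC-3p-7870_201 fell from 142 to 82.7. tae-MIR1121-p5_2ss16TA21TC had 440 and 387 while tae-MIR1121-p3_1ss6AG fell from 362 to 161.8 (log2 -1.16), with 230 in both DBA Aurora libraries. tae-MIR1120b-p5 had 105 and 135 against 1601 and 1283 for tae-MIR1120b-p3_2ss8GA18GA, and tae-MIR1127a-p5_1ss16AG fell from 229 to 140 against 3665 and 3397 for tae-MIR1127a-p3_1ss11CG. Pairs share arms where precursors give the same sequence, so they are not independent.

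**Figure D4:**
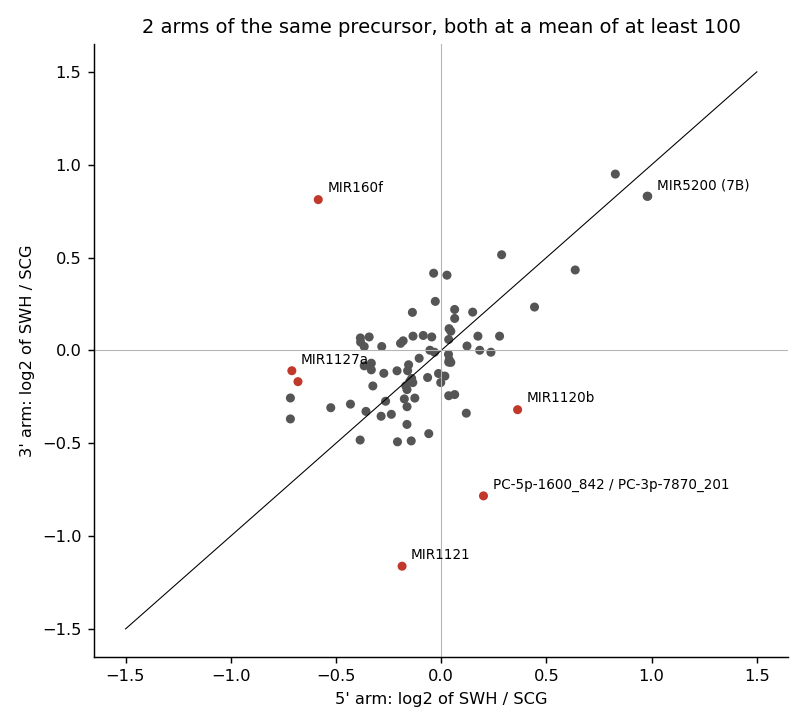
Log2 of SWH over SCG of the 5′ arm (horizontal axis) and of the 3′ arm (vertical axis) of the same precursor for 80 pairs, with the line of equal change. Red points differ by more than 0.5. MIR160f on 7B has -0.58 for the 5′ form assigned to it and 0.81 on the 3′ arm, whereas MIR5200 on 7B has 0.98 and 0.83.

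The 2 abundant sequences called in opposite directions were both families described from wheat, with targets that are less well known. tae-miR9774_L+2, a 24 nt form, rose from 1589 to 3841 normalised counts (log2 1.27, interval 1.19 to 1.36; Fisher's exact test, adjusted p = 3.87e-233). TCG and TWH had 1096 and 1296, so SWH stood above the other 3 libraries. Its precursor at chr3A:316608499-316608552 on the minus strand is only 54 nt long, and the other arm, tae-MIR9774-p5, had 24.98 and 25.2. tae-miR9661-5p_1ss14GA fell from 3513 to 1689 (-1.06, interval -1.14 to -0.97; Fisher's exact test, adjusted p = 3.03e-123), with 312 and 288 in DBA Aurora. Its other arm, tae-MIR9661-p3, fell from 94.9 to 51.5 (-0.88), and the precursor lies at chr4A:607648117-607648193 on the plus strand.

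The remaining wheat families included 3 of the 5 most abundant sequences, none of which passed either rule. The 5 most abundant sequences took 40.9% of the normalised counts in SCG and 40.0% in SWH. Among them tae-miR7757-5p_1ss2TC had 124711 and 113156, tae-miR9674b-5p had 96955 and 88281, and tae-miR9773_R+1 had 39508 and 36987. ata-miR9674b-3p had 20673 and 16354 (log2 -0.34), tae-MIR9670-p5 had 21758 and 16686 (-0.38) and tae-miR9662a-3p had 14257 and 12644 (-0.17), all short of the wider rule. Of 86 tested sequences of wheat families other than miR7757 and miR9674, 1 was called higher and 2 lower, the second being tae-miR9654a-3p with 71.2 and 33.0. Under the wider rule 3 rose and 5 fell. With 1.59% called higher and 1.44% lower over all tested sequences, and 2.87% and 2.55% under the wider rule, these counts are near the background. Besides those named, tae-MIR9655-p5 rose from 113 to 180 (0.67) and tae-MIR9653b-p3_1ss2GC from 60.8 to 92.3 (0.60). tae-MIR9658-p5 fell from 124.9 to 77.9 (-0.68) and tae-miR9659-3p from 733 to 404 (-0.86), the latter with 772 and 910 in DBA Aurora.

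**Figure D5:**
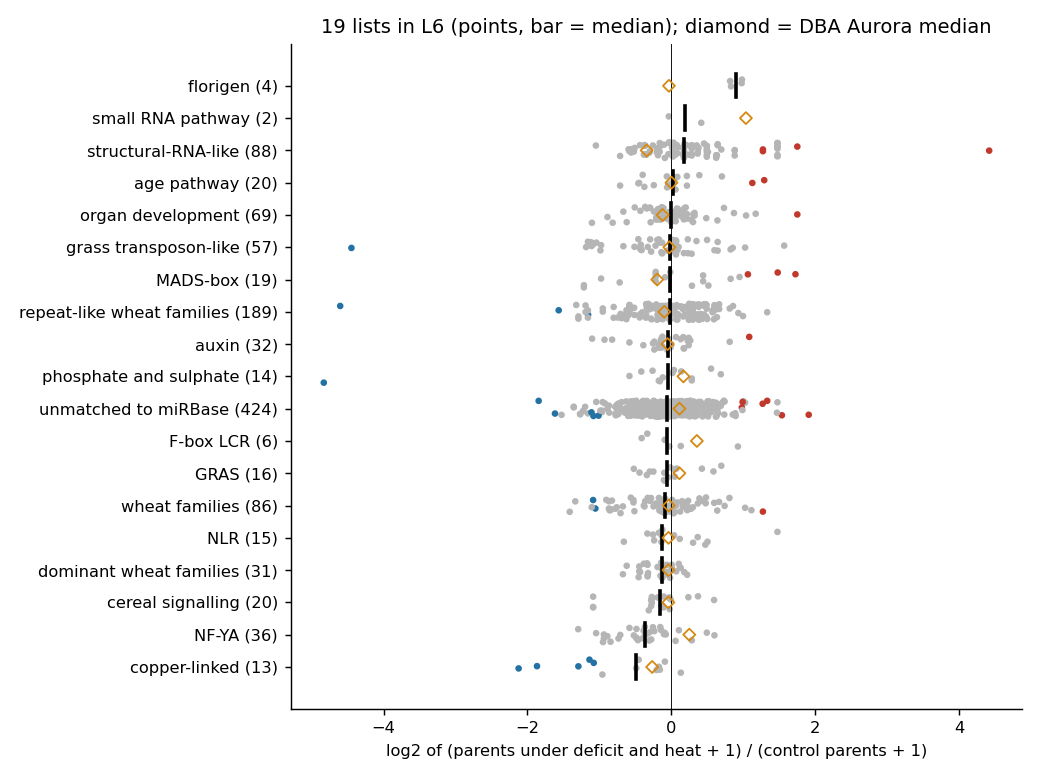
Log2 of (stressed parents + 1)/(control parents + 1) on the horizontal axis for the tested sequences of 19 lists in L6, with the number tested in brackets, called sequences in red (higher) or blue (lower), a black bar at the list's median and a diamond at the median in DBA Aurora. The copper-linked (-0.49) and miR169 (NF-YA, -0.37) lists lie lowest and miR5200 (florigen, 0.90) highest in L6.

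In the age pathway, where miR156 targets SPL genes and miR172 targets AP2-like genes, the main forms of miR156 were near level and that of miR172 was lower in SWH, short of either rule. bdi-miR156b-5p had 6173 normalised counts in SCG and 6328 in SWH, zma-miR156l-3p had 3197 and 3329, and bdi-miR156h-3p had 2009 and 1948. ata-miR172b-3p had 2220 and 1627 (log2 -0.45, interval -0.54 to -0.35). In DBA Aurora ata-miR172b-3p was also lower with stressed parents, with 3444 in TCG and 2166 in TWH. There bdi-miR156b-5p had 11362 and 7451, while zma-miR156l-3p had 2759 and 3552. Of 20 tested sequences 2 were called higher, against 1.59% over all tested sequences, and both were rare. gma-miR156a_L+1R+2 rose from 27.5 to 61.1 in L6 but went from 188 to 73.8 in DBA Aurora, and nta-MIR172f-p3_2ss15CG19TA, a 19 nt sequence, rose from 19.98 to 50.3.

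Families of organ development followed their own courses within narrow limits. Of 69 tested sequences 1 was called higher, bdi-miR319b-5p, with 4.995 in SCG and 19.2 in SWH from 6 and 16 reads. This count is near the 1.59% called higher over all tested sequences. osa-miR319a-3p.2-3p_R+1, of the family that targets TCP genes, had 14859 and 18310 normalised counts (log2 0.30), and 7 of 9 tested miR319 sequences had a log2 above 0. In miR164, which targets NAC genes, 8 of 10 were below 0, with a median of -0.25. Of all 1254 tested sequences, 577 were above 0 and 677 below. miR396, which targets growth-regulating factor genes, was led by osa-miR396e-5p with 144920 and 134776. ata-miR396c-5p had 16752 and 14482 (-0.21) and sbi-miR396c_R+1 had 361 and 280 (-0.37), and in DBA Aurora both were also lower in TWH without passing either rule.

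Phosphate and sulphate families held 1 call, a lower one, among 14 tested sequences, against 1.44% called lower over all tested sequences. zma-miR399e-5p_2ss6TC13CA, from the family that targets the PHO2 ubiquitin-conjugating enzyme, had 27.5 normalised counts from 33 reads in SCG and was at 0 in SWH, which is at least 4.58-fold lower, against 27.9 and 31.2 in DBA Aurora. The abundant form bdi-miR399a_1ss16AG had 541 and 555. osa-miR827 had 7005 and 5845 (log2 -0.26) and bdi-miR827-5p had 374 and 378.

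miR168 regulates AGO1, a core protein of the small RNA pathway. osa-miR168a-5p, its guide strand, had 11231 normalised counts in SCG and 10955 in SWH, and osa-miR168a-3p_L-3 had 8570 and 11431 (log2 0.42), short of the wider rule. In DBA Aurora the second went from 3571 to 14660. In the miR171 list, whose targets are GRAS genes, bdi-miR171b had 5412 and 5690, bdi-MIR171a-p5 3892 and 3988 and bdi-miR171f_1ss20CT 2210 and 2190, and rco-miR171c_R+4 rose from 81.6 to 123 under the wider rule, with 199.8 and 278 in DBA Aurora. For miR394, which targets an F-box gene, bdi-miR394 had 34116 and 37361 while zma-miR394a-5p_L+2 had 59.9 and 58.7 and ata-miR394-3p_L-2R+3 46.6 and 34.8. The rare mes-miR394a_R+2 rose from 24.1 to 46.7 under the wider rule.

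No sequence was called in families linked to NLR disease resistance genes or to calcium-binding and receptor-like kinase genes in cereals, with 15 and 20 sequences tested. With 1.59% called higher and 1.44% called lower over all tested sequences, this absence is near the background. ata-miR9863a-3p had 16453 and 16885, ata-miR9863a-3p_1ss9TC had 9088 and 8276 and ata-MIR9863a-p3 had 6357 and 5637. tae-miR5048-5p had 18047 and 16420 (log2 -0.14). Of 16 tested miR5048 sequences 14 had a log2 below 0, against 677 of all 1254. Several of the 16 are numbered copies with the same reads, such as tae-MIR5048-p5_1 with 12370 and 12174, and 10 are left with copies counted once.

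Families that overlap transposable elements were called lower about as often as all tested sequences (1.44%). The repeat-like wheat families held 3 lower calls among 189 tested. Besides tae-MIR1121-p3_1ss6AG, these were tae-miR1120a_L-4R+1_1ss10TC with 53.4 and 17.4 normalised counts and tae-MIR1128-p3_1ss24CT with 23.3 and 0 (at least 3.89-fold lower). tae-MIR1123-p3_1ss23AC had 3497 and 3590, and tae-MIR1137a-p5_1ss15GA had 3191 and 2477 (log2 -0.37). In the grass transposon-like list hvu-MIR5049e-p3_1ss6AC had 20.8 in SCG and none in SWH (at least 3.47-fold lower) and was the only call among 57. tae-MIR5175-p3_1ss2TC had 1042 and 946, tae-MIR5175-p5_1ss1AT 221 and 224, and osa-MIR818d-p3_1ss5TC 140 and 143.

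Sequences that resemble pieces of ribosomal or transfer RNA are described apart, as a measure of RNA fragments in the libraries. Of 88 tested, which form 62 sets when copies are counted once, 4 were called higher and none lower. Over all tested sequences 1.59% were called higher and 1.44% lower. Of the 88, 59 had a log2 above 0, against 577 of all 1254, and their median was 0.18 against -0.34 in DBA Aurora. With copies counted once, their summed normalised count was 5447 in SCG and 5620 in SWH, a log2 ratio of 0.045 whose interval (-0.0096 to 0.099) includes 0. The abundant ptc-miR6478_R-1 had 1038 and 1058, ptc-miR6478_R-1_1ss6CT 847 and 880, and ptc-miR6478_R+2_1ss21GA 576 and 580. The calls were all rare. ptc-MIR6478-p3_2ss2CG17GA had 0 and 20.4 (at least 4.90-fold higher), gma-MIR5368-p3_2ss5TC25TC had 4.995 and 19.2, and gma-MIR5368-p3_1ss14CA_1 had 10.8 and 27.6, values that its copy gma-MIR5368-p3_1ss14CA_2 shares. Whether fragments had a part in the other calls was not tested. By length, the medians of 18 and 19 nt sequences were 0.19 and 0.16, those of 21 and 22 nt -0.08 and -0.14, and that of 24 nt 0.01, and with a minimum mean of 50 those of 18 and 19 nt were -0.0059 and -0.0024. Of the 48 and 60 tested sequences of 18 and 19 nt, 15 and 16 were of this kind. By first base, the 548 sequences starting with T had a median of -0.09 and the 349 starting with A 0.02.

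Sequences that the authors predicted from the durum genome without a miRBase match (names starting with PC) gave 6 higher and 5 lower calls among 424 tested. These counts are near the shares over all tested sequences, 1.59% and 1.44%. The most abundant were level: PC-5p-283_6346 had 4198 normalised counts in SCG and 4164 in SWH, PC-3p-122_18579 had 3692 and 3813, and PC-5p-1206_1154 had 2228 and 2473 with 0 in both DBA Aurora libraries. PC-3p-12688_136 rose from 56.6 to 138 (log2 1.28), PC-3p-12090_142 from 23.3 to 69.5, PC-3p-16044_113 from 9.16 to 37.2, PC-3p-25028_78 from 10.8 to 28.8, PC-5p-3888_369 from 50.8 to 102 and PC-5p-10117_164 from 27.5 to 55.1. The precursor of the last, at chr7B:8934695-8934830, spans that of bdi-miR5200a-3p on the same strand, and PC-5p-10117_164 has the seed of ata-miR5200-5p. PC-5p-14884_120 fell from 50.0 to 13.2, PC-5p-37496_56 from 24.1 to 7.19, PC-5p-11401_148 from 63.3 to 28.8, PC-5p-20424_92 from 84.9 to 39.6 and PC-3p-12791_136 from 56.6 to 27.6. The other calls, outside the lists, were osa-miR5083_L+2R+1 (7.49 and 29.97), hbr-miR6173_L+1 (7.49 and 31.2) and ata-miR5084-5p_1ss8AG (34.1 and 9.59).

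More sequences were recorded in SCG alone than in SWH alone, 327 against 99, but SCG was also the deeper library. With a normalised count of at least 10, the numbers were 33 and 17. No such sequence exceeded 27.5 in SCG or 20.4 in SWH, and 42 of the 327 and 17 of the 99 were also at 0 in both DBA Aurora libraries. Beside those named above, tae-MIR9668-p3_2ss20GA23AG had 18.3 in SCG. In SWH, tae-MIR1120a-p5_2ss8CT20AG had 19.2 (at least 4.61-fold higher), ata-miR9863a-3p_1ss6AC had 16.8, and ath-miR8175_L-2_1ss17GA and ptc-MIR6478-p5_2ss11GA17GC had 14.4 each. At this depth a level under 5 reads cannot be told from absence.

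Positions were given for 37 of the 38 called sequences. Their precursors lay on 13 of the 14 chromosomes, 22 on A and 15 on B chromosomes, 3 overlapped an annotated gene and 17 lay more than 10 kb from one. No such counts over all tested sequences stand beside these, so they only describe where the called ones lie. The called sequences had 37 different seeds, and the only shared seed was that of the copies of gma-MIR5368-p3_1ss14CA.

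Of the L6 calls past a log2 of 1, 0 were called in the same direction in DBA Aurora. With 2.46% of sequences called higher and 3.81% called lower there, this count is near the background. Of the 20 sequences called higher in SWH, 16 were tested in DBA Aurora, where 4 had a log2 above 0, 12 below 0, and 2, gma-miR156a_L+1R+2 and PC-3p-12688_136, were called lower in TWH. Of the 18 called lower, 17 were tested, and 10 had a log2 below 0 and 7 above 0. Under the wider rule, 1 sequence, PC-5p-7734_204, rose in both genotypes, 5 fell in both, and 7 moved in opposite directions. Besides PC-3p-7870_201, the 5 were mtr-miR398a-5p_1ss7AC, osa-miR398a, osa-miR398a_L+1R-1 and bdi-miR398b_L-2R+2. The difference between the genotypes could not be tested with 1 library per group. Across the 1141 sequences tested in both, the log2 ratios had a Pearson r of -0.12 and a Spearman rho of -0.10, a description over sequences that are not independent.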

How the data were processed

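The table gave, per entry, a raw read number and a normalised value for each of the 4 libraries. As the methods of the study state, the authors trimmed the reads, kept 18 to 25 nt, removed matches to RFam, Repbase and mRNA, and matched the rest to miRBase and the durum genome with ACGT101-miR, whose version the sources used here do not give. The raw values the authors deposited are estimated counts, as 59 to 67 per library are not whole. The authors' normalised values are a signal, the raw number times 1 factor per library. Entries (2174) were reduced to 2111 distinct sequences, and 28 emptied lines were not analysed here.

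Each sequence that averaged at least 10 normalised counts was compared with the sum of all others by chi-squared and two-sided Fisher's exact tests (scipy 1.17.1, values rounded for the latter) with Benjamini-Hochberg adjustment over 1254 sequences. Log2 intervals are 95% Clopper-Pearson intervals on raw reads and, since PCR duplicates cannot be recognised, cover counting error only. List medians use log2((SWH + 1)/(SCG + 1)) with a pseudocount of 1. The summed normalised counts are lower in SWH by 0.07 on the log2 scale, so tests and folds have slightly different zero points. edgeR 4.0.16 and DESeq2 1.42.0 gave TMM and median-of-ratios factors and, for edgeR, the negative binomial test on reads rounded to whole numbers, as alternatives.

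Among the tested sequences, 183 belong to 54 sets of numbered copies of 1 name that carry the same reads in all 4 libraries. Chromosome names were given by matching the order of the genome's sequences to that of a Svevo.v1 gene table from RefSeq, which also gave the neighbouring genes. The members, the 19 lists and the rules were chosen with earlier results of these data known. Named sequences were up to 10 highest and 10 lowest calls with a count of at least 100 (4 of each were found), the 5 most abundant, the 3 most abundant and every call of each list, the 5 highest counts recorded in 1 library only, the 5 pairs of arms that differ most, and sequences the study names for this pair. Others were named after their values were seen.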

Additional observations from a re-analysis of the deposited data

Results flagged for a closer look

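Under the wider rule, 7 sequences changed in opposite directions in L6 and DBA Aurora. The difference between the genotypes was not tested, since there is 1 library per group. In L6 the log2 of SWH over SCG was -0.71 for tae-MIR1127a-p5_1ss16AG, -0.68 for tae-MIR9658-p5 and -0.58 for osa-miR160f-5p_L-2R+2, while TWH over TCG was 0.51, 0.72 and 0.60. In the other direction it was 0.60 for tae-MIR9653b-p3_1ss2GC, 1.0 for PC-5p-3888_369, 1.15 for gma-miR156a_L+1R+2 and 1.28 for PC-3p-12688_136. In DBA Aurora these had -0.97, -0.72 and -1.35, and PC-3p-12688_136 went from 33.1 normalised counts in TCG to 0 in TWH.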

How the results depend on the processing

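No paired analysis was possible because each seed group has 1 library. The counts of 20 higher and 18 lower sequences became 47 and 48 at an unadjusted p under 0.05, 54 and 73 without a minimum count, 36 and 32 with a log2 fold beyond 0.5, 5 and 7 with a minimum mean of 50, and 1 and 4 with the negative binomial exact test. At an adjusted p under 0.01, 13 were higher and 14 lower. Raw reads (24 and 15), TMM factors (23 and 19), median-of-ratios factors (22 and 18), distinct names (20 and 20) and numbered copies counted once, an alternative added after seeing the data (19 and 18), stayed within 1.5 times. The miR169 median of -0.37 became -0.33 with a pseudocount of 10, -0.40 without a minimum, -0.33 with a minimum mean of 50, -0.32 with TMM factors and -0.23 as a log2 ratio of summed counts. The copper-linked median of -0.49 became -0.76 without a minimum and -0.70 as a ratio of sums. The miR5200 median of 0.90 became 0.98 with a minimum mean of 50. The miR444 median of -0.01 had no stable sign, with -0.0505 without a minimum, 0.44 with a minimum mean of 50, 0.43 as a ratio of sums, 0.0322 with TMM factors and 0.36 with copies counted once. Sequences recorded in SWH alone fell in number from 99 to 17, and those in SCG alone from 327 to 33, with a count of at least 10. With a pseudocount of 10, 17 of the 38 called sequences lost their call, and the 4 at 0 in 1 library were left out of this alternative. None of the 99 named sequences examined changed sign with it. With TMM and median-of-ratios factors 9 and 7 of the 99 changed sign, none of them called and all with a log2 of at most 0.0445 in size. The smaller depth of SWH limits what can be seen of rare sequences, and a pool per group leaves biological spread unmeasured.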
